A study of Rattus norvegicus with 7 samples.

Results

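Transcripts of 10 chromatin regulators were followed in differentiating rat oligodendrocyte progenitor cells: Chd7, Chd8, Smarca4, Hdac1, Hdac2, Hdac3, Ezh2, Yy1, Prmt5 and Ep300. They were taken by gene symbol from the deposited expression table, in which each symbol occurred once, giving 10 of 32852 genes. Wild-type progenitors came from the brains of rats at postnatal day 7 and were plated at about 40000 cells per well. The 4 control libraries came from cells transfected with a control siRNA, and the 3 siRNLTR12-int libraries from cells transfected with an siRNA against RNLTR12-int, a retrovirus-derived repeat. The reagent was Lipofectamine RNAiMAX in both groups, and all cells then spent 4 to 5 days in differentiation medium. The labels name no strain, animal or culture for a library, so p-values measure the spread between these libraries, which may be partly technical. RNLTR12-int itself was not analysed here.

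Chromatin regulators set which genes a progenitor can open or close as it leaves the cell cycle and starts to make myelin. Remodelling ATPases slide or evict nucleosomes, deacetylases and PRC2 (the Polycomb complex that methylates histone H3 on lysine 27) shut genes down, and acetyltransferases activate them. In oligodendrocytes, loss of several of these proteins is known to block differentiation. HDAC1 and HDAC2, working with YY1, lift inhibitors of differentiation and restrain Wnt signalling, SMARCA4 is recruited by OLIG2 to oligodendrocyte enhancers, and CHD7 acts with SOX10. PRMT5 keeps the inhibitors Id2 and Id4 low, EZH2 holds back other fates, and HDAC3 acts with p300 on Olig2.

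YY1 is itself one of the regulators, and EZH2 belongs to a gene class that follows the cell cycle, so the regulators' promoters were searched for the YY1 core element (AAGATGGC) and the E2F element (TTTGGCGC or TTTCGCGC), on both strands. The sequences are from RefSeq (assembly GRCr8, not the Rnor_6.0 build named for the deposited data) and run from 250 bases before to 50 bases after the table's start of each gene, 5′ to 3′. Of the 10 regulators 8 had an entry. Chd7 and Chd8 had none. The YY1 element occurred in the promoters of Hdac1 and Prmt5, against 3.17% of all 33469 promoters, and the E2F element in that of Ezh2, against 0.79%. These 3 promoters are shown because they hold a match, which is in capitals.
Hdac1, chr5:147165338-147165637, minus strand: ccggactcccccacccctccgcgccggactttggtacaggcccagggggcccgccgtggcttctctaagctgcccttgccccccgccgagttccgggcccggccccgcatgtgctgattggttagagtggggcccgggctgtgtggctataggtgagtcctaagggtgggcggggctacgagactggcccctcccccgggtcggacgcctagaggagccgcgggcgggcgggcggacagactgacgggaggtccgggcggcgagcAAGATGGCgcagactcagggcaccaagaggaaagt
Prmt5, chr15:31948263-31948562, minus strand: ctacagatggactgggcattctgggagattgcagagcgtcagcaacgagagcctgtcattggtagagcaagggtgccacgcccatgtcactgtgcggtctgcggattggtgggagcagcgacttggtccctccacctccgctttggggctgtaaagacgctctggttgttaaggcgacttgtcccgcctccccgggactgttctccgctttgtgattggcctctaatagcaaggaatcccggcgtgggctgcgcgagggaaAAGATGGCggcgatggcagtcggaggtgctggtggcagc
Ezh2, chr4:77687134-77687433, minus strand: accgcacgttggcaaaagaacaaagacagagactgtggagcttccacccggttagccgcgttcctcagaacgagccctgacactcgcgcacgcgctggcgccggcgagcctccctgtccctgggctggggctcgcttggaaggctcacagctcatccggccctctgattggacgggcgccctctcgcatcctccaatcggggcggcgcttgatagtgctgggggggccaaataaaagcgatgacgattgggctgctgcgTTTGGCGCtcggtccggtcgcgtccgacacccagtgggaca
In each the match lay on the gene's own strand just after the start, with its first base at position 16 for Hdac1, 12 for Prmt5 and 10 for Ezh2, counting the start as 1. More common elements were searched too. CCAAT occurred in 5 of the 8 promoters (Smarca4, Hdac1, Ezh2, Yy1 and Prmt5), against 37.5% of all promoters. The GC box GGGCGG occurred in 6 (Smarca4, Hdac1, Hdac2, Hdac3, Ezh2 and Yy1), against 33.1%. The elements did not overlap the YY1 or E2F matches in the 3 promoters shown. The YY1 element contains ATG, and in Hdac1 and Prmt5 no stop codon follows in that frame before the window ends. The match may therefore lie on the protein's start codon, which was not checked. A match describes letters in this window and was not tested for binding.

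Values are normalised counts: reads per gene divided by 1 size factor per library, with no correction for gene length, so levels are compared between libraries and not between genes. The libraries held 22523873 to 61803693 reads, and the regulator with the fewest reads, Yy1, still had 843 in its lowest library, where counting error alone is 3.44%. The libraries also differed in what cells they held. Summed counts of 9 astrocyte markers were 473130 to 589880 in 3 libraries, the first 2 control replicates and siRNLTR12-int replicate 1 (called astrocyte-rich), against 112584 to 136215 in the other 4 (called astrocyte-poor), and none of the 9 was at 0 in any library. Microglia markers (11 measured) summed to 5247 to 16368 against 1592 to 2416. Oligodendrocyte lineage markers (10 measured, Sox10 and Olig2 among them) were present in every library, at 152144 to 919218. They were lowest in the first replicate of each group and highest in control replicate 2. In such bulk samples fewer cells of a type and less RNA per cell cannot be told apart.

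None of the 10 regulators differed between the siRNA groups beyond the spread between libraries. All 10 entered the fit (limma on log2(normalised count + 1), mean of at least 10), and 0 were called at an adjusted p under 0.05. Over all 18225 genes tested 0% were called, so this count says little about the regulators. Without adjustment 6.3% of genes had p under 0.05, of which 606 were higher and 543 lower in the siRNLTR12-int libraries, and 0 of the 10 were among them. In the authors' deposited table (DESeq2) 0.752% of the genes with an adjusted p were called and again 0 regulators, each at an adjusted p of 0.9999. In 7 regulators the difference was negative and in 3 positive. Their median log2 difference was -0.03, beside 0.006 over all genes. In 0 of the 10 did the 2 groups separate completely, where 7.68% of all genes did so in either direction. The 95% limits reached no lower than -0.50 (Smarca4) and no higher than 0.59 (Prmt5) on the log2 scale, so each regulator's interval excluded a doubling or a fall by the same factor. A single library set most signs: without siRNLTR12-int replicate 1 the difference was positive for Smarca4 (0.19), Hdac2 (0.16), Chd7 (0.15), Hdac1 (0.12), Ezh2 (0.073) and Ep300 (0.0042), with none of them called.

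**Figure D1:**
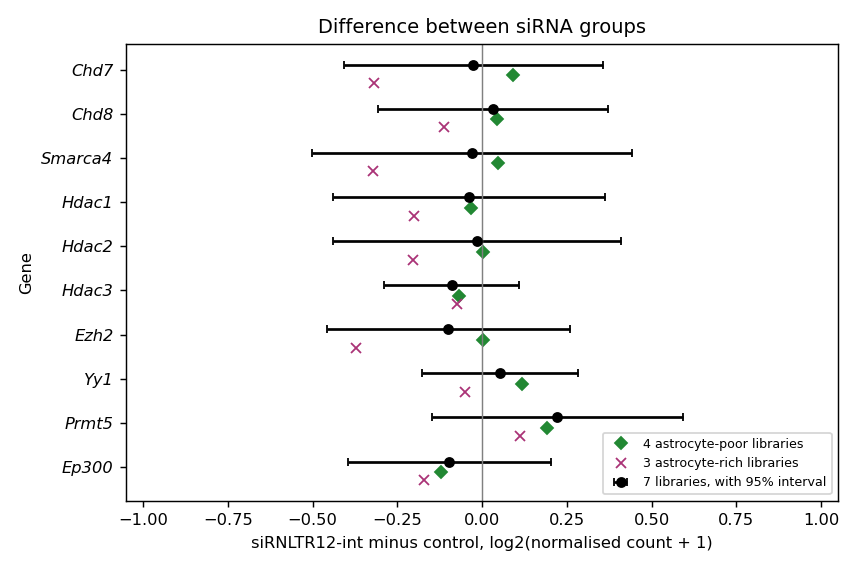
Difference in log2(normalised count + 1) between siRNLTR12-int and control libraries (x axis) for each regulator (y axis). Circles with bars are the fit of all 7 libraries and its 95% interval, diamonds the 4 astrocyte-poor libraries and crosses the 3 astrocyte-rich ones. Every interval spans 0, from -0.50 at the lowest to 0.59 at the highest.

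The CHD remodellers, which move nucleosomes and read histone tails, are given first. Chd7 (ENSRNOG00000006689), the remodeller mutated in CHARGE syndrome, had normalised counts of 8871, 11311, 10848 and 10813 across the control libraries, in replicate order, and of 8038, 11339 and 11753 across the siRNLTR12-int libraries. All values by library are given in that order. The first replicate of each group was low, and the other libraries of both groups overlapped. Group means were 10460 ± 1084 (SD, n = 4) and 10376 ± 2036 (SD, n = 3), with a log2 difference of -0.03 (SE 0.16, limma adjusted p = 0.998). Chd8 (ENSRNOG00000025011), a relative linked to autism that recruits histone H3 lysine 4 methyltransferases, had 8740, 10229, 11120 and 11183 in controls and 8746, 11542 and 11473 after the siRNA. Control replicate 1 and siRNLTR12-int replicate 1 were nearly equal and again lowest. The log2 difference of Chd8 was 0.03 (SE 0.14, limma adjusted p = 0.994).

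Among the 8 other CHD genes, 4 had a positive and 4 a negative difference, with a median of 0.0003. Chd4, the ATPase of the NuRD corepressor, had 14650, 18468, 14730 and 16289 in controls and 13856, 14030 and 13937 after the siRNA. All 3 siRNLTR12-int libraries lay below all 4 controls, with a log2 difference of -0.20 (limma adjusted p = 0.878). Chd3, a second NuRD ATPase, differed by -0.24 and Chd1l by 0.17 (limma adjusted p = 0.88 and 0.94). No CHD gene passed limma, the deposited test or the fit of the astrocyte-poor libraries.

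Smarca4 (ENSRNOG00000009271), which encodes the ATPase BRG1 of the BAF (SWI/SNF) remodeller, varied most of the 10 between libraries. It had 10782, 13927, 14736 and 15017 in controls and 9806, 15425 and 15300 after the siRNA, a 1.57-fold range between its lowest and highest library. That range was below the median of all genes tested (1.76-fold). The low libraries were again the first replicate of each group, and the rest overlapped. The log2 difference was -0.03 (SE 0.20, limma adjusted p = 0.998). Of 25 other BAF subunits 16 were positive and 9 negative, with a median of 0.04 and none past limma, the deposited test or the astrocyte-poor fit. Arid2, a DNA-binding subunit of the PBAF form, had 8089 ± 863 (SD, n = 4) in control and 6985 ± 125 (SD, n = 3) in siRNLTR12-int libraries without overlap (log2 -0.21, limma adjusted p = 0.856). Dpf3, a histone reader, and Bcl7c differed by 0.43 and 0.36 (limma adjusted p = 0.832 and 0.861).

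Hdac1 and Hdac2, the class I deacetylases that can stand in for each other in oligodendrocytes, followed the same order. Hdac1 (ENSRNOG00000009568) had 2841, 3498, 3720 and 4075 in controls and 2744, 3904 and 3709 after the siRNA. Hdac2 (ENSRNOG00000000604) had 2252, 2866, 3223 and 3067 in controls and 2208, 3028 and 3275 after the siRNA. In both genes the first replicate of each group was lowest and the groups overlapped. The log2 differences were -0.04 for Hdac1 (SE 0.17, limma adjusted p = 0.994) and -0.01 for Hdac2 (SE 0.18, limma adjusted p = 0.998). No source used here states how reads shared by such close relatives were divided.

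Hdac3 (ENSRNOG00000019618), a class I deacetylase that works in a corepressor complex of its own, behaved otherwise. It had 2103, 2136, 1931 and 2012 in controls and 2012, 1895 and 1862 after the siRNA. Its lowest and highest libraries differed 1.15-fold, the narrowest range of the 10, and the astrocyte-rich libraries were not low in it. Control replicate 3 lay below siRNLTR12-int replicate 1, and control replicate 4 was almost equal to it. The log2 difference was -0.09 (SE 0.08, limma adjusted p = 0.956).

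Some other deacetylases had larger differences than these class I enzymes. Of 13 listed, 12 were tested, 4 positive and 8 negative with a median of -0.14. Hdac11, a deacetylase abundant in myelinating oligodendrocytes, had 646, 3208, 905 and 1100 in controls and 371, 490 and 393 after the siRNA. All siRNLTR12-int libraries lay below all controls, and control replicate 2 stood far above the rest. The log2 difference was -1.53 (limma adjusted p = 0.703), and the DESeq2 adjusted p in the authors' deposited table was 0.0775. Sirt2, a deacetylase carried in myelin, had 27221, 100589, 53623 and 73317 in controls and 22024, 32494 and 30872 after the siRNA, with overlap at control replicate 1. Sirt7, a nuclear sirtuin, had 909 ± 64.2 (SD, n = 4) against 698 ± 37.6 (SD, n = 3) without overlap (log2 -0.38, limma adjusted p = 0.661). In the 4 astrocyte-poor libraries alone (2 against 2), where limma called 7.88% of 17947 genes, Hdac11 fell by 1.18 and Sirt2 fell by 0.99 on the log2 scale (limma adjusted p = 0.00994 and 0.0139). There the class IIa enzymes Hdac5 and Hdac7 both rose by 0.68 (limma adjusted p = 0.0116 and 0.0361). In all 7 libraries Sirt2 differed by -1.03, Hdac5 by 0.52 and Hdac7 by 0.54 (limma adjusted p = 0.784, 0.865 and 0.828). Summed oligodendrocyte markers were 333824 and 401823 in the controls of that set and 259410 and 241440 in its siRNLTR12-int libraries. The 10 markers did not move together: limma in that set called 2 higher and 5 lower. Olig1 and Olig2 differed there by 0.26 and 0.19 (limma adjusted p = 0.0948 and 0.185). The part of oligodendrocyte marker levels in the fall of Hdac11 and Sirt2 was not tested.

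Subunits of corepressors such as NuRD, Sin3 and CoREST, which carry HDAC1, HDAC2 or HDAC3 to their targets, gave 28 tested rows for 27 genes, since Rcor1 has 2 identifiers. They split evenly, 14 positive and 14 negative, with a median of 0.01. Rcor1, the CoREST scaffold, differed by -0.38 at the identifier with the smaller p and Rbbp7, a histone chaperone, by 0.17, both without overlap (limma adjusted p = 0.665 and 0.835). The other Rcor1 identifier had more counts, a control mean of 1325 against 671. There Rcor1 differed by -0.26 and the groups overlapped (limma adjusted p = 0.840).

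Ezh2 (ENSRNOG00000006048), the methyltransferase of PRC2, had 2082, 2430, 2476 and 2480 in controls and 1737, 2508 and 2458 after the siRNA. Both first replicates were low, and the other 5 libraries differed by little. Its log2 difference was -0.10 (SE 0.15, limma adjusted p = 0.982). In siRNLTR12-int replicate 1, the lowest library of Ezh2, 19 genes of proliferating cells summed to 26501, against 35864 to 42295 in the other 6 libraries. In control replicate 1, where Ezh2 was also low, they summed to 40661. The part of proliferation in the level of Ezh2 was not tested.

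Its relative Ezh1, which can serve PRC2 in cells that no longer divide, differed in the other direction. Ezh1 had 1100, 1027, 1200 and 1142 in controls and 1277, 1504 and 1509 after the siRNA. All 3 siRNLTR12-int libraries were above all 4 controls, with a log2 difference of 0.35 (limma adjusted p = 0.69), and Ezh1 rose by 0.36 in the astrocyte-poor libraries alone (limma adjusted p = 0.045). Of the 10 PRC2 and H3K27 demethylase genes measured, 6 were positive and 4 negative, with a median of 0.05. Phf1, an accessory subunit, had 509 ± 63.6 (SD, n = 4) against 657 ± 0.854 (SD, n = 3) without overlap (log2 0.38, limma adjusted p = 0.712). Mtf2, another accessory subunit, differed by -0.31 (limma adjusted p = 0.908). Among 18 PRC1 subunits 10 were positive and 8 negative, with a median of 0.01. Pcgf5, a subunit of a variant PRC1, had 349, 242, 307 and 247 in controls and 364, 532 and 507 after the siRNA, and rose by 0.91 in the astrocyte-poor libraries (limma adjusted p = 0.0165). In all 7 libraries it differed by 0.70 (limma adjusted p = 0.662). Ring1, a ubiquitin ligase of PRC1, differed by 0.17 without overlap and Phc1 by 0.20 with overlap (limma adjusted p = 0.895 and 0.946).

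Yy1 (ENSRNOG00000004339), a zinc finger factor that works with INO80 and with HDAC1, was nearly flat. It had 1385, 1649, 1420 and 1496 in controls and 1460, 1591 and 1570 after the siRNA, a 1.19-fold range. All siRNLTR12-int values lay inside the control range, and the log2 difference was 0.05 (SE 0.10, limma adjusted p = 0.984). Of 13 INO80 subunits 10 were positive and 3 negative, with a median of 0.05. Ruvbl2, an ATPase shared with other complexes, rose by 0.41 in the astrocyte-poor libraries (limma adjusted p = 0.0366), and differed by 0.31 in all 7 (limma adjusted p = 0.901). Ino80, the ATPase of the complex, had 2573, 2247, 2679 and 2627 in controls and 2718, 2832 and 2867 with the siRNA, without overlap (log2 0.15, limma adjusted p = 0.898). Nfrkb, another subunit, differed by 0.20 (limma adjusted p = 0.828).

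Prmt5 (ENSRNOG00000012046), the enzyme that places symmetric dimethylarginine on histones and splicing proteins, had the largest difference of the 10. It had 2746, 2676, 3410 and 3484 in controls and 2928, 3970 and 3900 after the siRNA. The 3 astrocyte-rich libraries were lowest. Within the astrocyte-poor libraries both siRNLTR12-int values exceeded both controls, and within the astrocyte-rich ones the siRNLTR12-int value exceeded both controls. Over all libraries the groups overlapped, and the log2 difference was 0.22 (SE 0.16, limma adjusted p = 0.918). In the astrocyte-poor libraries it was 0.19 (limma adjusted p = 0.152). Hdac3 and Ep300 showed the reverse order in both sets. Separation in both sets was common: 14.5% of all genes were higher and 11.2% lower in siRNLTR12-int libraries in this sense, so 1 regulator above and 2 below is near the background.

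The arginine methyltransferases and PRMT5 partners gave 9 positive and 3 negative differences of 12, with a median of 0.09. Prmt2, a coactivator and arginine methyltransferase, had 1280, 1423, 1430 and 1421 in controls and 1728, 1944 and 1875 after the siRNA. Every siRNLTR12-int library was above every control. By the authors' deposited table, Prmt2 rose by 0.41 with a DESeq2 adjusted p of 0.0195. It rose by 0.42 in the astrocyte-poor libraries (limma adjusted p = 0.0258), while limma on all 7 gave 0.41 with an adjusted p of 0.647. Carm1, the methyltransferase PRMT4, had 2779 ± 132 (SD, n = 4) against 3339 ± 384 (SD, n = 3), with a log2 difference of 0.26 (limma adjusted p = 0.778). Prmt8, a membrane-bound family member, differed by -0.56 (limma adjusted p = 0.826).

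Ep300 (ENSRNOG00000000190), the histone acetyltransferase p300, had 2428, 2694, 3056 and 3030 in controls and 2270, 2781 and 2815 after the siRNA. The first replicates were lowest and the groups overlapped, with a log2 difference of -0.10 (SE 0.13, limma adjusted p = 0.981). Its close relative Crebbp, which shares most of its partners, had 19329, 18845, 22256 and 22970 in controls and 21158, 26722 and 26036 after the siRNA, a log2 difference of 0.24 (limma adjusted p = 0.875). Of 13 other acetyltransferases and BET readers, Crebbp included, 7 were positive and 6 negative, with a median of 0.04. In the astrocyte-poor libraries Kat2a and the BET reader Brd2 rose, by 0.33 and 0.32, and the acetyltransferase Kat2b fell by 0.50 (limma adjusted p = 0.0404, 0.0394 and 0.0421). Over all 7 libraries they differed by 0.24, 0.17 and -0.42 (limma adjusted p = 0.944, 0.92 and 0.935).

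**Figure D2:**
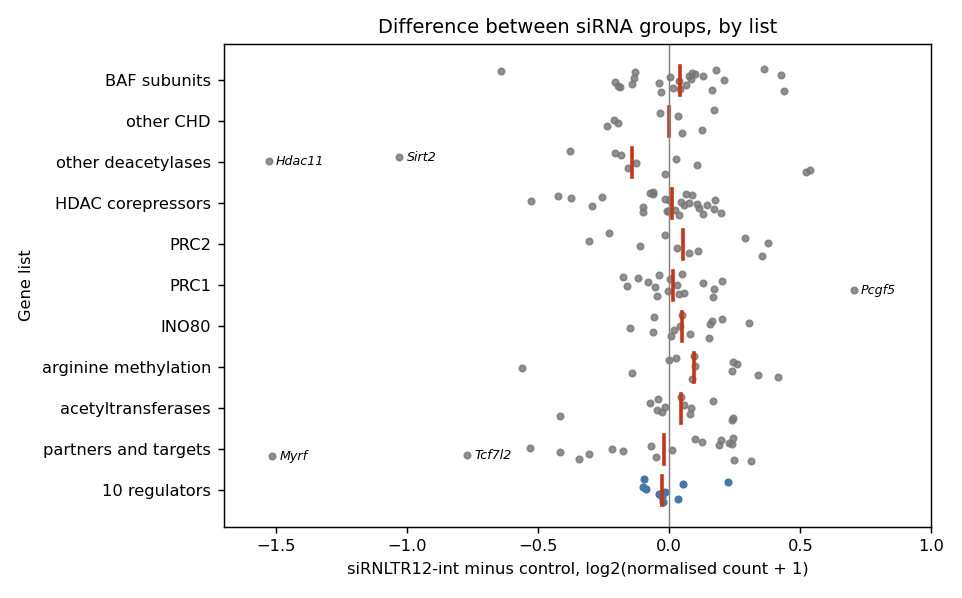
Difference in log2(normalised count + 1) between siRNLTR12-int and control libraries (x axis) for the genes of each list (y axis, 1 point per gene tested, spread vertically for legibility). The red bar is the list's median. The 10 regulators (bottom, blue) lie between -0.10 and 0.22, and Hdac11 and Myrf lie lowest, at -1.53 and -1.52.

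Over the 9 chromatin lists together, 139 of 140 rows were tested, with 80 positive and 59 negative differences and a median of 0.03. With limma 0 passed, and without adjustment 5 higher and 5 lower genes had p under 0.05, which is 7.19% beside 6.3% of all genes. In the authors' deposited table (DESeq2) Prmt2 alone passed. The astrocyte-poor fit called 8 higher and 3 lower, 7.91% of the 139, beside 7.88% of all genes.

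Partners and downstream genes of the regulators were also read. Of 20, 10 were positive and 10 negative, with a median of -0.02. Myrf, the transcription factor that switches on myelin genes, had 11417, 45149, 16995 and 26328 in controls and 7356, 7661 and 7996 after the siRNA, in replicate order. By the authors' deposited table, Myrf fell by 1.70 (log2) with a DESeq2 adjusted p of 0.0267. Tcf7l2, the Wnt effector that HDAC1 and HDAC2 are known to work through, had 4564, 9867, 6507 and 7852 in controls and 4205, 3870 and 4095 after the siRNA. All siRNLTR12-int libraries were below all controls for both genes, and control replicate 2 was highest for both. In limma on all 7 libraries Myrf differed by -1.52 and Tcf7l2 by -0.77 (adjusted p = 0.661 and 0.701). In the astrocyte-poor libraries Myrf fell by 1.43 and Tcf7l2 fell by 0.84 (limma adjusted p = 0.0102 and 0.00938), and Nfia, a factor of glial fate, rose by 0.37 (0.027). The lower oligodendrocyte marker sums of the siRNLTR12-int libraries in that set stand beside these falls too, and their part was not tested. Not every marker was lower there, as given above for Hdac11 and Sirt2. Creb3l2, a gene downstream of CHD7, differed by -0.42 (limma adjusted p = 0.865). Id4, an inhibitor that HDACs, YY1 and PRMT5 are known to hold down, had 1973, 1834, 985 and 1196 in controls and 2070, 1196 and 1219 after the siRNA. Id4 was high in the 3 astrocyte-rich libraries. Its log2 difference was 0.01 in all 7 libraries (limma adjusted p = 0.999), 0.15 in the astrocyte-poor ones (limma adjusted p = 0.451) and 0.12 in the astrocyte-rich ones. Within each set the siRNLTR12-int values of Id4 lay above the controls, as they did in 14.5% of all genes. In the astrocyte-poor set this order rests on near equality: 1196.3 in siRNLTR12-int replicate 2 against 1195.7 in control replicate 4. Id2, the other inhibitor named above for PRMT5, differed by -0.18 in all 7 libraries (limma adjusted p = 0.984). It differed by -0.11 in the astrocyte-poor libraries (limma adjusted p = 0.569) and by 0.076 in the astrocyte-rich ones.

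For most regulators the low values were shared by a library of each group. In 7 of the 10 (Chd7, Chd8, Smarca4, Hdac1, Hdac2, Ezh2 and Ep300) the lowest values were those of control replicate 1 and siRNLTR12-int replicate 1. That pair was lowest in 21.3% of all genes tested and in 69 of the 139 chromatin genes of the 9 lists (49.6%), among them 14 of 18 PRC1 subunits. The pattern was chosen after it was seen and is given as a description. Both libraries were astrocyte-rich, and in them Sox10, the transcription factor of the oligodendrocyte lineage, had 8318 and 8037 counts, against 27505 to 38713 in the other 5. Olig2 had 9854 and 10733 there, against 13716 to 26395. Sox10 and Olig2 were the only 2 of the 10 oligodendrocyte lineage markers with this pair lowest, a share near that of all genes. Olig1 had 28784 and 30602 in the pair, against 27410 in control replicate 2. Control replicate 2, the third astrocyte-rich library, was the next lowest for 6 of these 7 regulators, all but Chd7, and it held the most oligodendrocyte marker counts, 919218. The part of cell composition in these levels was not tested. Averaged over sets, the log2 difference of astrocyte-rich minus astrocyte-poor libraries was -0.41 for Smarca4, -0.40 for Prmt5, -0.38 for Hdac2 and -0.35 for Hdac1, and -0.02 for Yy1 and 0.11 for Hdac3. The median over the 10 was -0.28, beside -0.007 over all genes tested. Taken without sign, the median difference over all genes tested was 0.30, so a difference of this size was common. Over the 9 chromatin lists the median was -0.16, with 105 of the 139 genes below 0.

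**Figure D3:**
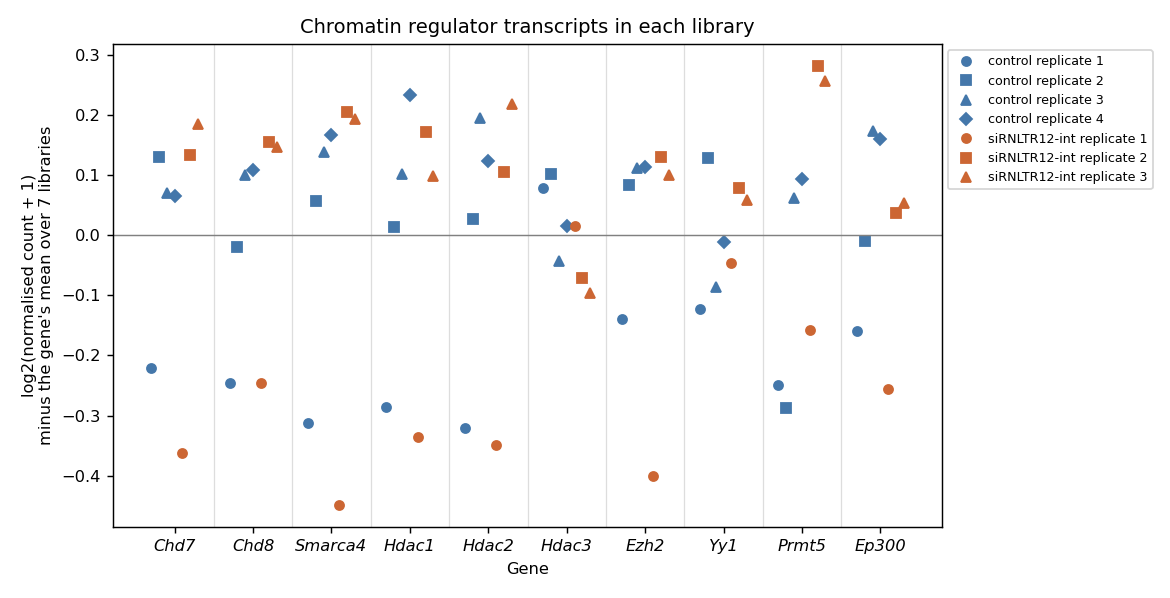
Level of each regulator (x axis) in each library, as log2(normalised count + 1) minus the gene's mean over the 7 libraries (y axis). Blue marks are control and orange marks siRNLTR12-int libraries, and the shape gives the replicate number. Circles, the first replicate of each group, lie lowest for 7 genes, and the other marks of both colours overlap.

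Within a library the ratio of partner genes does not depend on the size factor, and 5 such ratios were compared, each with an exact permutation test (two-sided) and adjustment over the 5. Only the difference of a ratio between groups is read, since gene lengths were not used. The 35 ways to assign the 7 libraries allow no p under 0.0286. The log2 ratio of Ezh2 to Ezh1 was 0.92, 1.24, 1.04 and 1.12 in controls and 0.44, 0.74 and 0.70 in siRNLTR12-int libraries. Every siRNLTR12-int ratio was below every control ratio. The means were 1.08 ± 0.14 (SD, n = 4) and 0.63 ± 0.16 (SD, n = 3), a difference of -0.45 (exact permutation p = 0.0286, adjusted 0.0714). The difference was -0.36 in the astrocyte-poor and -0.64 in the astrocyte-rich libraries. Ezh1 differed by 0.35 and Ezh2 by -0.10 (log2).

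The log2 ratio of Ep300 to Crebbp was -2.99, -2.81, -2.86 and -2.92 in controls and -3.22, -3.26 and -3.21 in siRNLTR12-int libraries, again without overlap. The means were -2.90 ± 0.08 (SD, n = 4) and -3.23 ± 0.03 (SD, n = 3), a difference of -0.33 (exact permutation p = 0.0286, adjusted 0.0714). It was -0.34 in the astrocyte-poor and -0.32 in the astrocyte-rich libraries. Crebbp differed by 0.24 and Ep300 by -0.10 (log2), so Crebbp had the larger part in it. Neither this ratio nor that of Ezh2 to Ezh1 passed 0.05 after adjustment. Both were at the smallest exact permutation p possible, 0.0286. With 2 of 5 ratios there, the adjusted value could not be under 0.0714 unless another ratio also reached it. Not passing therefore says nothing about these 2 ratios. How often other gene pairs separate in this way was not examined.

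The other 3 ratios overlapped between the groups. The log2 ratio of Hdac1 to Hdac2 was 0.31 ± 0.09 (SD, n = 4) in controls against 0.29 ± 0.10 (SD, n = 3) in siRNLTR12-int libraries (exact permutation p = 0.714, adjusted 0.893). That of Chd7 to Chd8 was 0.02 ± 0.09 (SD, n = 4) and -0.04 ± 0.08 (SD, n = 3) (exact permutation p = 0.457, adjusted 0.762). That of Smarca4 to its alternative ATPase Smarca2 was 2.07 ± 0.17 (SD, n = 4) and 2.07 ± 0.21 (SD, n = 3) (exact permutation p = 0.971, adjusted 0.971). Smarca4/Smarca2 was lowest in the first replicate of each group, at 1.82 and 1.83, against 2.08 to 2.22 in the other 5 libraries.

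**Figure D4:**
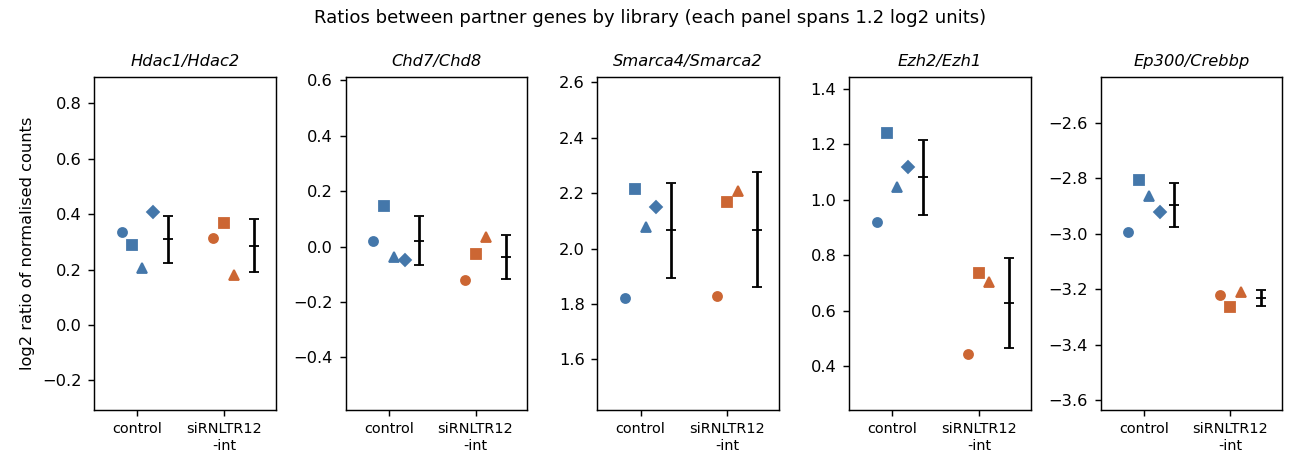
Log2 ratio of normalised counts of 5 gene pairs (y axis, every panel spanning the same number of log2 units) in control (blue) and siRNLTR12-int (orange) libraries. Circles, squares, triangles and diamonds are replicates 1 to 4, and black bars give mean ± SD. The groups separate for Ezh2/Ezh1 and Ep300/Crebbp and overlap in the other 3 panels.

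The genes whose levels ran most closely with each regulator over the 7 libraries were listed as a description, by Pearson r among 12367 named genes with a mean of at least 100. For Chd7 they were Scrt1 and Ube2d1 (r = 0.993 and 0.990), for Chd8 Hnrnpc and Clec2l (both 0.999), and for Smarca4 Cnot6 and Ints8 (0.997 and 0.996). For Hdac1 they were Nup35 and Wipf1 (0.996 and 0.994), for Hdac2 Dgcr8 and Dhdh (0.999 and 0.994), and for Hdac3 Sec14l1 and Ldah (both 0.990). For Ezh2 they were Zcchc3 and Igfbpl1 (0.992 and 0.989), for Yy1 Ppm1l and Stk4 (0.996 and 0.993), for Prmt5 Cables1 and Gar1 (0.999 and 0.998), and for Ep300 a gene with only a clone name and Zfp280d (0.991 and 0.985). Values of this size were common over 7 libraries. The number of genes with r above 0.95 was 647 for Chd8, 427 for Hdac1, 383 for Prmt5, 380 for Smarca4 and 317 for Hdac2. It was 144 for Chd7, 135 for Ep300, 134 for Hdac3, 100 for Ezh2 and 15 for Yy1.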

How the data were processed

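RNA sequencing libraries (ribosomal RNA depleted, directional, paired-end, RNA integrity numbers 9 to 10, per the labels' protocols) of 4 control and 3 siRNLTR12-int samples were used. Salmon, DESeq2 and the build Rnor_6.0 are named, without versions, in the submitters' processing notes. The authors deposited a signal per gene and library, counts divided by 1 size factor, and a comparison table with the mean signal, log2 fold change and its error, test score, p-value and adjusted p-value, per the file headers. Whole reads were recovered from the signal (100% of values below 1000 reads within 0.01 of a whole number). The main test was limma 3.58.1 on log2(value + 1), with a mean-variance trend and a two-sided test. It covered the 18225 genes averaging at least 10, with Benjamini-Hochberg adjustment over all of them. edgeR 4.0.16 and DESeq2 1.42.0 were run on the recovered reads as alternatives, and the fits were tested on simulated data with known changes. The closest replicate pair, siRNLTR12-int replicates 2 and 3, differed by more than sampling noise (median chi-square per gene 1.23, against 0.455). Control replicates 3 and 4 followed at 2.52, and every other pair within a group was at 7.84 to 15.8. Those closest pairs make up the astrocyte-poor fit. Its p-values therefore measure the spread between the most alike libraries of each group. Astrocyte-poor and astrocyte-rich libraries were set apart at the largest gap in mean astrocyte marker level, and a fit of 2 against 2 libraries rests on the spread pooled over genes. Regulators and lists were chosen with earlier results of these data known. Named from each list were up to 3 genes of smallest limma p and those past the deposited threshold, of which 1 gene is not reported here. Hdac5, Hdac7, Kat2a, Nfia, Id2, Id4, Olig1, Olig2 and Sox10 are named outside that rule, after their values were seen, and Smarca2 as a ratio partner. Bicra, Epop, Pcgf1, Itgam, Col1a2 and Pecam1 matched no row. Other pseudocounts (0.25 and 8), filters (none and a mean of 50), TMM scaling, a replicate block, an astrocyte covariate, the astrocyte-poor libraries alone and leaving out each library were tried. The astrocyte-rich libraries alone were added after seeing the data.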

Additional observations from a re-analysis of the deposited data

Results flagged for a closer look

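Ezh2 in the control libraries had 1 library apart from the rest: its first replicate had 2082 normalised counts, while the remaining 3 controls had 2430 to 2480. The gap to its nearest neighbour took up 0.875 of the whole control range, beyond the 95% limit for 4 values. Chance alone flags about 1 in 20 such groups, and 10 genes and 5 ratios were examined.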

How the results depend on the processing

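Hdac3, Prmt5 and Yy1 kept their direction, and all 10 regulators stayed uncalled, in each of the 17 alternatives tried on all or part of the libraries. In the 3 astrocyte-rich libraries alone, which allow no test, Yy1 differed by -0.05. Of the 10 regulators, Prmt5 alone met an unadjusted limma p under 0.05 (smallest 0.0213, with the astrocyte level as a covariate). With that covariate 1744 higher and 1196 lower genes of 18225 met it. In the astrocyte-poor fit 2576 higher and 1848 lower genes of 17947 did, so 1 regulator of 10 is not set apart. Leaving out 1 library at a time gave log2 differences of -0.13 to 0.15 for Chd7, -0.045 to 0.16 for Chd8, -0.14 to 0.19 for Smarca4, -0.14 to 0.12 for Hdac1, -0.13 to 0.16 for Hdac2, -0.19 to 0.073 for Ezh2 and -0.16 to 0.0042 for Ep300, with siRNLTR12-int replicate 1 left out at the upper end of each. In the astrocyte-poor libraries alone the sign turned for Chd7 (0.092), Smarca4 (0.046), Ezh2 (0.0027), Hdac2 (0.0022) and the Chd7/Chd8 ratio (0.047). The astrocyte covariate gave -0.0017 for Chd8. With the replicate block, in which control replicate 4 has no partner, the sign turned for Hdac1 (0.035), Hdac2 (0.025), Smarca4 (0.022) and the Hdac1/Hdac2 ratio (0.010), and 0 genes were called either way. Leaving out control replicate 4 gave these same differences, because a library without a partner adds nothing to the block's estimate. The cause of the other turns was not tested. The labels do not say whether equal replicate numbers were prepared together. The correlation of deviations was 0.746, -0.191 and 0.632 for replicates 1, 2 and 3. For siRNLTR12-int replicate 2 it was highest with control replicate 3 (0.566). Such correlations cannot decide on pairing, since all were positive within an astrocyte set and negative between the sets.

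Ratio differences without 1 library ranged from -0.51 to -0.36 for Ezh2/Ezh1, -0.37 to -0.30 for Ep300/Crebbp, -0.063 to 0.030 for Hdac1/Hdac2, -0.094 to -0.016 for Chd7/Chd8 and -0.078 to 0.12 for Smarca4/Smarca2. With the block the smallest possible exact p was 0.25.

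Counts of called genes depended on the tool and the libraries. Limma called 0 higher and 0 lower, edgeR 0 and 0 (580 and 585 at an unadjusted p under 0.05), DESeq2 on the recovered reads 72 and 69, and limma in the astrocyte-poor libraries 858 and 557. Leaving out 1 library gave 0 to 1 higher and 0 to 1 lower. Counting error was small for all 10 regulators, so the spread between 7 libraries limits what could be seen.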
